A study of Mus musculus with 24 samples.

Results

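The measurements described here ask how the liver's response to a tumour-promoting treatment differed with and without the forkhead transcription factors Foxa1 and Foxa2. They come from 16 of the 24 arrays of the study, the female ones. These fall into 4 groups of 4 arrays: treated females with Foxa1 and Foxa2 deleted (dKO), untreated dKO females, treated wild-type (WT) females and untreated WT females. Treated mice received diethylnitrosamine (DEN), a carcinogen that hepatocytes activate, at 20 mg/kg when 14 to 15 days old, and then 8 injections of TCPOBOP at 3 mg/kg, 2 weeks apart. TCPOBOP is a ligand of the constitutive androstane receptor (CAR, gene Nr1i3) and promotes liver tumours after DEN. The labels give all groups, the untreated ones too, the same liver tumour tissue name; they do not say whether nodules or whole liver were taken, nor the age at collection. Neither the deleted part of the genes nor the Cre line that removed it is given in the sources used here, and nothing says that the arrays of a group came from separate mice, so p-values measure only the spread between these samples.

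FOXA proteins are forkhead factors that bind and open compacted chromatin in hepatocytes, and work beside nuclear receptors at liver enhancers; Foxa3 is the third member of the liver group. CAR moves to the nucleus when TCPOBOP binds it and switches on enzymes of drug metabolism such as Cyp2b10. Estrogen and androgen receptors also act with FOXA factors in the liver, and DEN-induced tumours are known to differ between the sexes.

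RNA was amplified, labelled with Cy3 and hybridised to Agilent mouse arrays in 1 colour. A level is the log2 signal of a gene's probe minus the array's 75th percentile of log2 signal, so a level of 0 equals that percentile. The dKO response is treated dKO minus untreated dKO, the WT response is treated WT minus untreated WT, and the interaction is the dKO response minus the WT response. An interaction below 0 means that a gene rose less or fell more in dKO livers. A gene is called where limma's moderated test gave a Benjamini-Hochberg adjusted p under 0.05 over 19037 genes.

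The fourth array of each group stood apart in a way that bears on every p-value. Among genes above background on all 4 arrays of a group, taking those whose range was above the median range, the level of replicate 4 lay between those of the other 3 arrays for 82.3% to 95.3% of genes in the 4 female groups. The same share was 15.4% to 68.8% for the other 12 arrays. The SD of the difference from the mean of the other 3 was 0.21 to 0.33 (log2) for the fourth arrays, against 0.44 to 1.14 for the others. The labels give replicate 4 as a replicate like the rest and do not say that its RNA was mixed from them. If it held that RNA it would add no independent sample, and p-values over 4 arrays would be too small; this was not tested further. Counts of calls and the p of called results are therefore given over all arrays and over replicates 1 to 3 alone, and a single gene is said to have risen or fallen only where the call was made both ways. The names of the classes below (lost or weakened, gained or strengthened) refer to calls over all arrays.

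**Figure D1:**
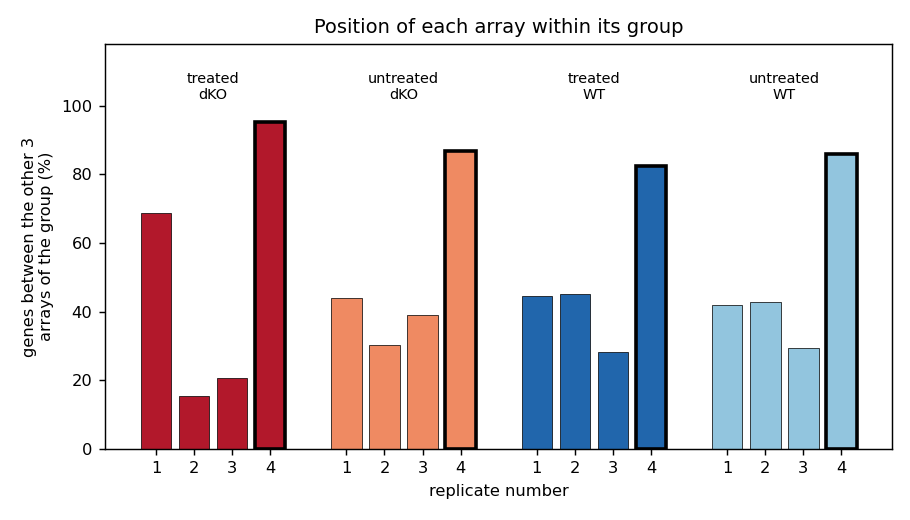
Share of genes (%) whose level on an array lay between those of the other 3 arrays of its group, for each of the 16 female arrays; replicate 4 has a heavy outline. Replicate 4 reached 82.3% to 95.3% in the 4 groups, while no other array passed 68.8%.

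The treated dKO arrays also differed from the rest in their technical measures. They had 65% to 68.4% of spots above background, against 50.4% to 65.3% on the other 12 arrays, and a spike-in slope of 0.923 to 0.985, against 0.989 to 1.03. All 4 lay in array position 4 of their slides, where no array of the other 3 female groups lay. Position 4 and the treated dKO group therefore cannot be told apart; with position as a covariate the called interactions kept their sign in 982 of 982 genes and a median of 0.959 of their size, but their standard errors grew 1.49-fold and 4 genes remained called. All 31 hepatocyte genes measured were above background on at least 1 array of each female group. Treated dKO replicate 2 was the most distinct library, with the lowest hepatocyte and the highest cell cycle levels.

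The deleted genes were low in dKO arrays. Foxa1 had −7.94, −8.29, −8.13 and −8.21 on treated dKO arrays, −5.93, −7.45, −7.75 and −7.22 on untreated dKO arrays, −2.99, −3.36, −3.18 and −3.07 on treated WT arrays, and −2.11, −2.41, −2.42 and −2.27 on untreated WT arrays. It was not above background on any of the 8 dKO arrays. Foxa2 had −5.20, −7.32, −5.48 and −6.24 on treated dKO arrays, −1.93, −7.12, −3.77 and −3.14 on untreated dKO arrays, 4.09, 4.09, 3.88 and 3.98 on treated WT arrays, and 4.49, 4.92, 3.93 and 4.45 on untreated WT arrays. Some Foxa2 signal was measured in dKO livers, above background on 2 of 4 treated and 3 of 4 untreated arrays, and no dKO array overlapped a WT array. Foxa3, which was not deleted, had an interaction of −0.20 ± 0.39 (SE; adjusted p = 0.811 over all arrays and 0.93 over replicates 1 to 3).

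Over all arrays 982 genes had a called interaction, 5.16% of those tested: 471 above 0 (2.47%) and 511 below 0 (2.68%). Over replicates 1 to 3 the call was made for 7 genes (0.0368%), 2 above 0 (0.0105%) and 5 below 0 (0.0263%). All 982 kept their direction over replicates 1 to 3, where 981 had an unadjusted p under 0.05, with a median adjusted p of 0.344; an unadjusted p under 0.05 was reached by 1990 of the 19037 genes. Since these arrays are among those the genes were called on, the kept direction is no sign of stability. The standard error was 1.35 times larger at the median. The dKO response itself was called for 7209 genes over all arrays (37.9%; 3107 up, 16.3%, and 4102 down, 21.5%) and for 2523 over replicates 1 to 3 (13.3%; 1143 up, 6%, and 1380 down, 7.25%). The WT response was called for 3273 genes over all arrays (17.2%; 1617 up, 8.49%, and 1656 down, 8.7%) and for 397 over replicates 1 to 3 (2.09%; 205 up, 1.08%, and 192 down, 1.01%). More genes passing in dKO than in WT does not by itself show a difference, and the interaction is the test of it. The fit gave each gene a single spread shared by all groups, but treated dKO arrays varied more. Correlations between their replicates were 0.933 to 0.985, against 0.976 to 0.99 in the other female groups. A shared spread can then make p-values of the dKO response too small and those of the WT response too large. Without treated dKO replicate 2 the calls were 5556 in dKO and 4044 in WT.

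Among the genes with a called interaction, 181 (0.951% of genes tested) had a called WT induction that was lost or weakened in dKO, and 111 (0.583%) a called WT repression that was. Another 349 (1.83%) had a dKO induction that was gained or strengthened, and 319 (1.68%) a dKO repression that was. Over replicates 1 to 3 the interaction was called for 4 of the 181, 0 of the 111, 2 of the 349 and 1 of the 319. In the remaining 22 genes neither genotype's own response was called. The median interaction of all genes was −0.02.

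**Figure D2:**
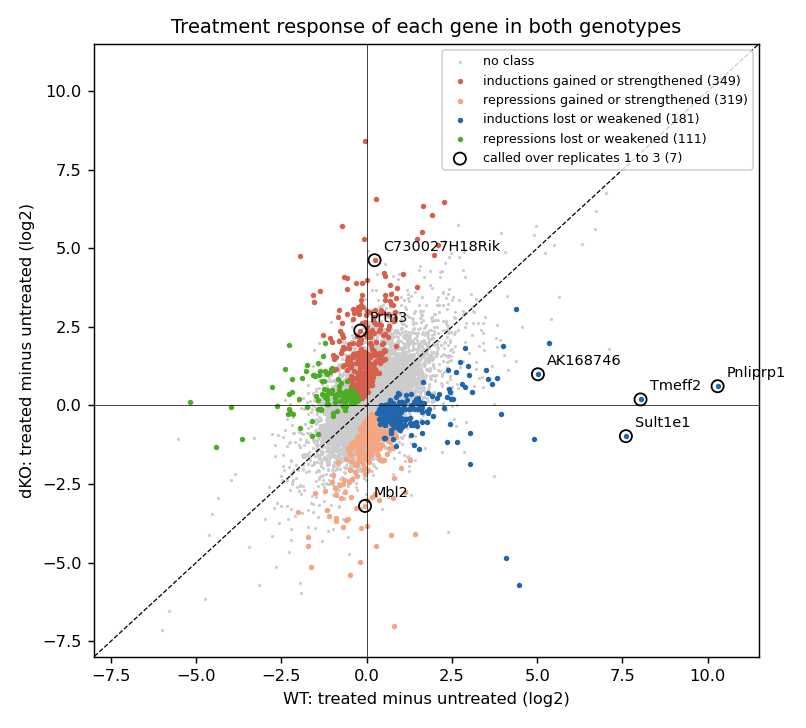
dKO response (y axis, log2) against WT response (x axis, log2) for 19037 genes, with called interactions coloured by class and the 7 genes called over replicates 1 to 3 ringed and named; the dashed line marks equal responses. Genes of lost inductions lie right of the diagonal near a dKO response of 0, and those of gained responses lie near a WT response of 0; Tmeff2, AK168746 and C730027H18Rik had a group below background on every array, so their position is not a size.

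Of the 7 genes called over replicates 1 to 3 as well, 4 were induced by treatment in WT livers and not called as responding in dKO livers over replicates 1 to 3. Sult1e1, on mouse chromosome 5, encodes estrogen sulfotransferase, which inactivates estrogens. Its level was 6.59, 2.19, 7.10 and 6.02 on treated dKO arrays and 6.94, 6.50, 5.92 and 6.46 on untreated dKO arrays. It was 6.43, 5.91, 6.11 and 6.11 on treated WT arrays and −1.75, −0.65, −2.16 and −1.26 on untreated WT arrays. The untreated WT group was the low one, and dKO livers without treatment already had the level that WT livers had with it. The dKO response was −0.98, the WT response 7.60 and the interaction −8.58 ± 0.96 (SE; limma adjusted p = 7.31e-05 over all arrays and 0.0232 over replicates 1 to 3). Leaving out any single array gave −9.12 to −7.48.

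Tmeff2 encodes a transmembrane protein with follistatin-like modules. It was at −0.84, −3.86, −0.67 and −1.42 on treated dKO arrays, −2.44, −2.12, −1.20 and −1.79 on untreated dKO arrays, 0.86, 2.53, 1.74 and 1.81 on treated WT arrays, and −6.64, −6.04, −6.18 and −6.31 on untreated WT arrays. It was not above background on any untreated WT array, so only a bound can be given, an at least 111-fold induction in WT livers, while dKO livers held an intermediate level with and without treatment (interaction adjusted p = 4.06e-06 by limma over all arrays and 0.00718 over replicates 1 to 3).

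Pnliprp1 encodes a lipase-related protein best known from the exocrine pancreas. It was at −4.42, −6.75, −4.03 and −5.07 on treated dKO arrays, −6.04, −6.59, −4.87 and −5.22 on untreated dKO arrays, 5.02, 2.92, 4.46 and 4.39 on treated WT arrays, and −6.71, −6.71, −4.54 and −6.43 on untreated WT arrays. Only the treated WT group was high; the gene was above background on 3, 1, 4 and 1 arrays of the groups in that order. The dKO response was 0.61 and the WT response 10.29, an interaction of −9.68 ± 0.94 (SE; limma adjusted p = 9.61e-06 over all arrays and 0.0115 over replicates 1 to 3). With 3 of 4 arrays of each untreated group not above background, these sizes are uncertain, and the interaction was −6.93 with normexp background correction and −10.79 with array position as a covariate. Unlike Sult1e1, its untreated dKO level lay with untreated WT. Of 8 exocrine pancreas markers measured, 0 had a called WT response over replicates 1 to 3. AK168746, a transcript with no gene name in the array annotation, was above background on all treated WT arrays and no untreated WT array, at least 7.03-fold higher (interaction adjusted p = 8.43e-05 by limma over all arrays and 0.00718 over replicates 1 to 3).

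Of the 7, 2 genes gained an induction in dKO livers. C730027H18Rik, a RIKEN transcript, was at −1.50, −0.98, −2.06 and −1.44 on treated dKO arrays, −5.97, −5.97, −6.55 and −5.97 on untreated dKO arrays, −1.22, −0.86, −0.55 and −0.85 on treated WT arrays, and −0.83, −1.23, −1.60 and −0.74 on untreated WT arrays. The untreated dKO group alone was below background, and treated dKO livers were at least 11.7-fold above it, close to the range of both WT groups (interaction adjusted p = 5.88e-08 by limma over all arrays and 0.000414 over replicates 1 to 3). Prtn3 encodes proteinase 3, a serine protease of neutrophil and myeloid granules. It was at −2.59, −2.56, −2.74 and −2.66 on treated dKO arrays, −5.74, −4.78, −4.84 and −4.70 on untreated dKO arrays, −4.98, −5.44, −4.83 and −4.69 on treated WT arrays, and −4.89, −4.65, −4.34 and −5.31 on untreated WT arrays. The treated dKO arrays were all above every other array, with a dKO response of 2.38 and an interaction of 2.56 ± 0.36 (SE; limma adjusted p = 0.00104 over all arrays and 0.00718 over replicates 1 to 3). The gene was above background on 3, 1 and 2 arrays of the other 3 groups, and its call ended with another background correction. The 11 neutrophil markers measured had a median response of 1.39 in dKO and 1.38 in WT livers, with a mean level of −3.19 to −0.94 on treated dKO, −4.19 to −2.94 on untreated dKO, −3.69 to −1.96 on treated WT and −5.08 to −4.08 on untreated WT arrays; their part in the Prtn3 result was not tested.

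Mbl2, which encodes a mannose-binding lectin that hepatocytes secrete to activate complement, gained a repression. It was at 4.68, 5.0, 5.63 and 4.95 on treated dKO arrays, 8.17, 8.33, 8.25 and 8.30 on untreated dKO arrays, 8.55, 8.97, 8.58 and 8.59 on treated WT arrays, and 8.59, 8.63, 8.88 and 8.80 on untreated WT arrays. The treated dKO arrays lay below all the others, with a dKO response of −3.20 and a WT response of −0.05 (limma adjusted p = 6.66e-11 and 0.864). The interaction was −3.15 ± 0.22 (SE; limma adjusted p = 5.88e-08 over all arrays and 0.000452 over replicates 1 to 3), and −3.34 within the slide that held all 4 groups. No call of these 7 genes was lost by leaving out any single array. With array position as a covariate Tmeff2, Pnliprp1, C730027H18Rik and Mbl2 stayed called, and Sult1e1, AK168746 and Prtn3 did not.

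**Figure D3:**
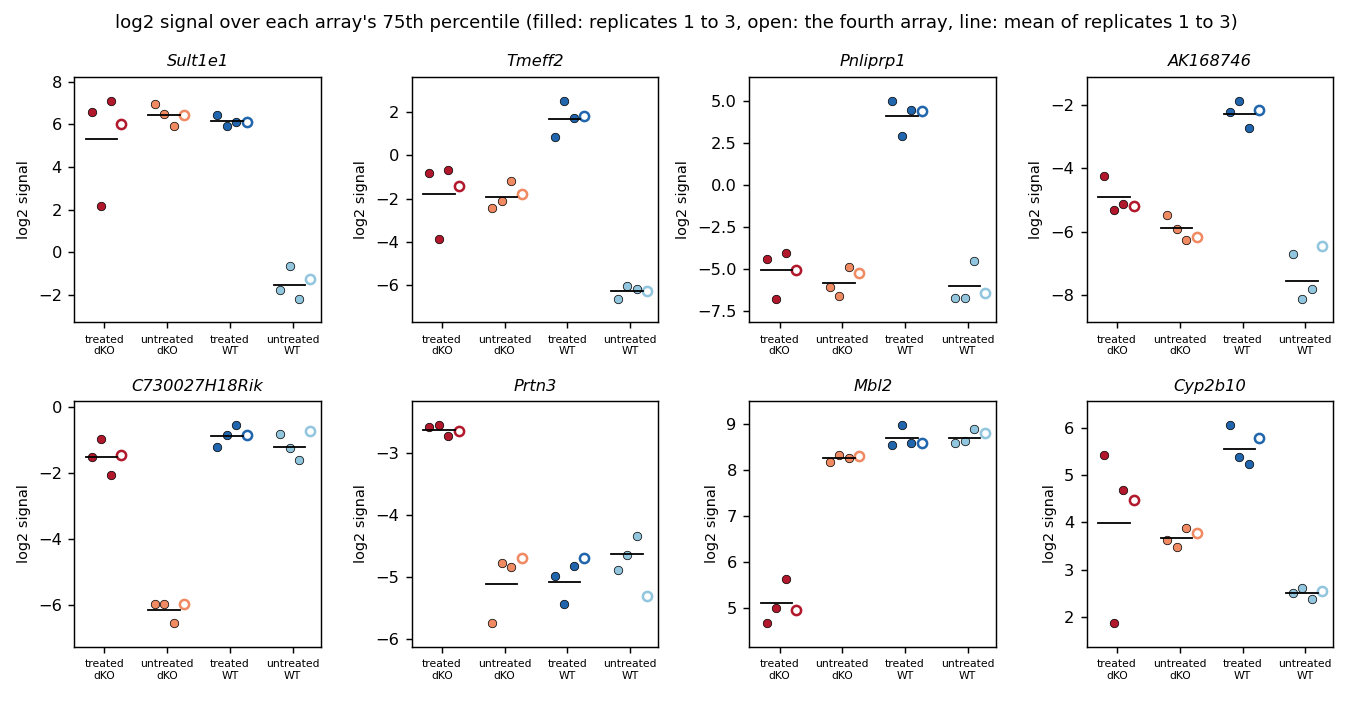
Level (log2 signal over the array's 75th percentile, y axis) on each array of treated dKO, untreated dKO, treated WT and untreated WT livers for the 7 genes called over replicates 1 to 3 and for Cyp2b10; filled points are replicates 1 to 3, open points the fourth array and lines the mean of replicates 1 to 3. Untreated WT livers stand apart for Sult1e1, treated WT livers for Pnliprp1 and treated dKO livers for Mbl2 and Prtn3.

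Promoter windows from RefSeq (250 bases before to 50 after the start, build GRCm38.p6) were searched on both strands for the forkhead motif TGTTTAC, for a related heptamer that reads TATTTAC, and for another related heptamer that reads TGTTTGC. A promoter was found for 21 of the 24 genes of largest interaction, and 1 of them, Gbp2b, held a match, against 12.5% of 27025 genes. The windows of Sult1e1 and Mbl2 are shown because these genes were called over both sets of arrays, and that of Gbp2b because it holds the match, with matches in capitals and each sequence on the gene's strand.
Sult1e1 promoter, chr5:87591562-87591861, minus strand: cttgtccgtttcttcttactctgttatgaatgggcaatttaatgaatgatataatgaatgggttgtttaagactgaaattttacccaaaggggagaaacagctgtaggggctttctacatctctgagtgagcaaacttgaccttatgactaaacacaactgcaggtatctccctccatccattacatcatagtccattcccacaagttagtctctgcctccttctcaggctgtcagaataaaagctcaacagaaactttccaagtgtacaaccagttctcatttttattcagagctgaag
Mbl2 promoter, chr19:30232678-30232977, plus strand: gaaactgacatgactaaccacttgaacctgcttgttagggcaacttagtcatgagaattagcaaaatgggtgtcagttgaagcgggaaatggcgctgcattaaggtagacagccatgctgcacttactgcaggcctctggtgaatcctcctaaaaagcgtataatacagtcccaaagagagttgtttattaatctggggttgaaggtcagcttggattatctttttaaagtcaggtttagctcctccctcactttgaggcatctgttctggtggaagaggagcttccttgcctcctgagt
Gbp2b promoter, chr3:142594597-142594896, plus strand: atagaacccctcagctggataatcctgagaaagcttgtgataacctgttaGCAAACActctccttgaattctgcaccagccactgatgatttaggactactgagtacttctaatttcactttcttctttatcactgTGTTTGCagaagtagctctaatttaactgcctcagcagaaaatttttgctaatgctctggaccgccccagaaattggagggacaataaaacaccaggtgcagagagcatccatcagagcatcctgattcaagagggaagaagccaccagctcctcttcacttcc

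The 181 lost or weakened WT inductions had a median interaction of −1.30 (−1.29 over replicates 1 to 3), with a median dKO response of −0.19 and a median WT response of 1.0. In 122 the interaction was at least 2-fold. The WT induction itself was called over replicates 1 to 3 in 67 of the 181. In dKO livers 136 had no called response, 13 had a weaker one and 32 a called response of the opposite sign. Untreated dKO livers were nearer to treated than to untreated WT livers in 106 of the 181, as for Sult1e1, and both dKO groups were nearer to untreated WT livers in 61, as for Pnliprp1. The class was chosen on the same group means, which favours such positions. The share among all genes with a called WT induction was not computed.

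Among the largest of this class, DXBay18, a gene known by its mapping name, was at −0.43, −3.01, −1.49 and −1.53 on treated dKO arrays and −1.92, −2.91, −2.54 and −2.41 on untreated dKO arrays. It was at −1.16, −1.43, −1.15 and −1.29 on treated WT arrays and −5.06, −4.39, −4.85 and −4.92 on untreated WT arrays. It rose by 3.55 in WT livers (adjusted p = 2.61e-06 by limma, and 0.00301 over replicates 1 to 3), with an interaction of −2.72 ± 0.51 (SE; adjusted p = 0.00696, and 0.232 over replicates 1 to 3). Gna14, a G protein alpha subunit, was at −1.28, −4.85, −0.66 and −1.82 on treated dKO arrays and −2.78, −3.24, −2.65 and −2.64 on untreated dKO arrays. It was at 1.94, 1.22, 1.34 and 1.57 on treated WT arrays and −1.93, −2.07, −2.30 and −2.27 on untreated WT arrays. Its WT rise of 3.66 was called both ways (0.0263 over replicates 1 to 3 by limma) and its interaction of −2.98 ± 0.77 (SE) over all arrays only (adjusted p = 0.0291 and 0.366).

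Cyp4a12a, a fatty acid hydroxylase with higher expression in male liver, had 1.66, 5.07, 2.44 and 4.00 on treated dKO arrays, 2.98, 1.95, 5.19 and 4.10 on untreated dKO arrays, 0.17, 0.33, 2.25 and 0.94 on treated WT arrays, and −3.26, −4.07, −1.46 and −3.25 on untreated WT arrays. Its interaction was −4.20 ± 1.0 (SE; limma adjusted p = 0.021 over all arrays and 0.33 over replicates 1 to 3), −1.38 within the slide of all 4 groups, and its probe may also bind the near-identical Cyp4a12b. Ntrk2, a neurotrophin receptor, and Asic5, an ion channel, had interactions of −3.53 and −2.93 (limma adjusted p = 0.0483 and 0.0248 over all arrays, 0.405 and 0.352 over replicates 1 to 3). The call was lost without any of 11 single arrays for Ntrk2, 2 for Asic5 and 5 for Gna14. Duoxa1, the maturation factor of a dual oxidase, was above background in treated WT livers only, at least 6.83-fold over untreated WT (interaction adjusted p = 0.0185 by limma, 0.273 over replicates 1 to 3). The cytokine gene Il7 was at least 2.69-fold higher in treated than in untreated WT livers (0.0351 and 0.346), and its call was lost without any of 10 single arrays.

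The 111 lost or weakened WT repressions had a median interaction of 1.22 (1.25 over replicates 1 to 3), with a median dKO response of 0.30 and a median WT response of −1.03. The WT repression was called over replicates 1 to 3 in 32 of them, and none had a called interaction there. Untreated dKO livers were nearer to treated than to untreated WT livers in 72 of the 111, a position that the choice of the class on these means favours. Susd4, which encodes a sushi-domain complement regulator, was at −4.39, −4.14, −4.43 and −4.58 on treated dKO arrays, −4.40, −4.94, −4.06 and −3.99 on untreated dKO arrays, −3.95, −4.10, −4.15 and −4.39 on treated WT arrays, and 0.54, 0.43, −1.89 and 0.24 on untreated WT arrays. Untreated WT livers alone were high. The gene fell by 3.98 on the log2 scale in WT livers, called both ways (adjusted p = 1.04e-06 by limma and 0.00186 over replicates 1 to 3), and its interaction of 3.93 ± 0.54 (SE) had adjusted p = 0.00073 over all arrays and 0.0986 over replicates 1 to 3.

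Hspb1, a small heat shock protein, was at 0.67, 1.13, −0.23 and 0.57 on treated dKO arrays, −1.93, −1.78, −0.78 and −1.34 on untreated dKO arrays, −0.82, 0.44, −0.54 and −0.20 on treated WT arrays, and 0.83, 1.18, 0.91 and 0.83 on untreated WT arrays. It rose by 1.99 in dKO livers (limma adjusted p = 0.00016, and 0.0152 over replicates 1 to 3), and its WT response was −1.22 (0.0132 and 0.134). The interaction was 3.21 ± 0.45 (SE; adjusted p = 0.00103 by limma and 0.106 over replicates 1 to 3). Extl1, an exostosin-like glycosyltransferase, fell by 4.43 on the log2 scale in WT livers (limma adjusted p = 3.02e-07, and 0.000763 over replicates 1 to 3), with a dKO response of −1.31. Its interaction was 3.12 ± 0.54 (SE; limma adjusted p = 0.00373 and 0.227). Kiss1, the kisspeptin gene, fell in WT livers by 2.20 (0.00048 by limma, and 0.0294 over replicates 1 to 3), with an interaction of 2.65 (0.0081 and 0.221). Serinc2 and Chac1, a glutathione-degrading enzyme gene, had interactions of 2.85 and 2.76 (limma adjusted p = 0.012 and 0.0191 over all arrays, 0.304 and 0.337 over replicates 1 to 3). Sptb, D630045J12Rik and Zc3hav1l were below background on every treated WT array, at least 2.61-, 2.40- and 1.81-fold lower than in untreated WT livers (limma adjusted p of the interactions 0.0439, 0.00922 and 0.00373 over all arrays, and 0.371, 0.248 and 0.187 over replicates 1 to 3). The call of Sptb was lost without any of 12 single arrays.

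The 349 gained or strengthened dKO inductions had a median interaction of 1.36 (1.33 over replicates 1 to 3), a median dKO response of 1.35 and a median WT response of −0.10. The dKO induction was called over replicates 1 to 3 in 266 of the 349. The treated dKO mean lay above both WT means in 315. The class was chosen on the same treated dKO levels, which favours this position, and the share among all genes was not computed. Mgst2, a microsomal glutathione transferase, was at 2.76, 5.33, 2.18 and 4.31 on treated dKO arrays, −2.31, −3.12, −2.78 and −2.58 on untreated dKO arrays, −1.89, −2.43, −0.86 and −1.64 on treated WT arrays, and −3.71, −3.40, −2.95 and −3.42 on untreated WT arrays. All treated dKO arrays were above all the others. It rose by 6.34 in dKO livers (limma adjusted p = 2.47e-07, and 0.000672 over replicates 1 to 3), with a WT response of 1.66 and an interaction of 4.68 ± 0.75 (SE; 0.00245 and 0.187).

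Fgf21, a liver hormone of fasting and stress, was at 0.75, 4.83, 0.38 and 3.71 on treated dKO arrays, −2.06, −1.66, −3.34 and −2.24 on untreated dKO arrays, −1.98, −1.92, −2.76 and −2.22 on treated WT arrays, and 0.40, −2.63, 1.06 and 0.14 on untreated WT arrays. It rose by 4.75 in dKO livers (limma adjusted p = 0.000385, and 0.0267 over replicates 1 to 3), and the treated dKO arrays overlapped the untreated WT ones. Its interaction was 6.71 ± 1.21 (SE; limma adjusted p = 0.0052 and 0.232). Serpina7, thyroxine-binding globulin, was at 0.84, 4.02, −0.28 and 2.90 on treated dKO arrays and −3.53, −4.11, −3.76 and −3.94 on untreated dKO arrays. It was at −1.27, −0.39, −0.02 and −0.57 on treated WT arrays and 0.62, −0.64, 0.53 and 0.21 on untreated WT arrays. The untreated dKO group was the low one, and the gene rose by 5.71 in dKO livers (limma adjusted p = 7.13e-06, and 0.00469 over replicates 1 to 3), with an interaction of 6.44 ± 0.93 (0.00106 and 0.136).

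Rad51b, a recombination repair gene, and Cgref1, a gene of a growth-regulating EF-hand protein, rose in dKO livers by 3.30 and 3.69 (limma adjusted p = 0.000296 and 0.000139, with 0.021 and 0.0161 over replicates 1 to 3). Their interactions were 4.83 and 4.27 (0.00295 and 0.00759 over all arrays, 0.191 and 0.24 over replicates 1 to 3). H19, the imprinted non-coding RNA of fetal liver, was at 3.70, −0.31, 0.95 and 2.07 on treated dKO arrays, −5.72, −3.94, −5.50 and −4.25 on untreated dKO arrays, −2.45, −3.66, −0.65 and −1.88 on treated WT arrays, and −4.13, −3.49, −6.01 and −4.12 on untreated WT arrays. It rose by 6.46 in dKO livers (limma adjusted p = 2.82e-05, and 0.00644 over replicates 1 to 3), while its interaction of 4.18 (0.0487 and 0.4) was lost without any of 12 single arrays. Slc7a11, the cystine transporter, was above background only on treated dKO arrays, at −4.11, 3.20, −3.30 and 1.93, at least 22.2-fold over untreated dKO livers (interaction adjusted p = 0.0246 by limma and 0.393). Phlda2, an imprinted growth regulator, was at least 12.1-fold over untreated dKO livers (0.0361 and 0.396). The interaction call was lost without any of 3 single arrays for Slc7a11 and 12 for Phlda2.

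The 319 gained or strengthened dKO repressions had a median interaction of −1.03 (−1.06 over replicates 1 to 3), a median dKO response of −0.97 and a median WT response of 0.10. The dKO repression was called over replicates 1 to 3 in 225 of them, and the treated dKO mean lay below both WT means in 299. The choice of the class on the same levels favours this position too. Besides Mbl2, Gbp2b, an interferon-inducible guanylate-binding protein, was at −3.95, −2.87, −4.94 and −3.56 on treated dKO arrays, 1.53, −0.23, 0.54 and 0.69 on untreated dKO arrays, 0.15, −1.52, −1.13 and −0.45 on treated WT arrays, and −1.31, −0.69, −1.12 and −0.88 on untreated WT arrays. All treated dKO arrays were below all the others. It fell by 4.46 on the log2 scale in dKO livers (limma adjusted p = 4.42e-06, and 0.00266 over replicates 1 to 3), with an interaction of −4.72 ± 0.69 (SE; 0.00121 and 0.136).

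Sult2a7, a hydroxysteroid sulfotransferase with near-identical paralogs that its probe may also bind, was at −2.11, −4.52, 2.73 and 0.84 on treated dKO arrays, 5.80, 6.64, 6.39 and 6.24 on untreated dKO arrays, 5.86, 4.45, 5.16 and 5.57 on treated WT arrays, and 3.45, 4.02, 5.78 and 4.57 on untreated WT arrays. It fell by 7.03 on the log2 scale in dKO livers (limma adjusted p = 4.53e-05, and 0.00545 over replicates 1 to 3), and the treated dKO arrays spread widely below the rest. The interaction was −7.84 ± 1.38 (SE; limma adjusted p = 0.00424 and 0.184). Slc1a2, a glutamate transporter of pericentral hepatocytes, fell in dKO livers by 3.89 (limma adjusted p = 7.78e-05, and 0.0103 over replicates 1 to 3), with an interaction of −3.71 (0.0131 and 0.26). 1810046K07Rik and Ube2u, a ubiquitin-conjugating enzyme gene, fell in dKO livers by 5.41 and 2.32 (limma adjusted p = 9.75e-05 and 0.000903, with 0.0093 and 0.027 over replicates 1 to 3). Hhip, a hedgehog inhibitor, was not above background on any treated dKO array, at least 5.15-fold below untreated dKO livers (limma adjusted p of the interaction 0.0154 over all arrays and 0.21 over replicates 1 to 3). For Adipoq, the adipocyte hormone adiponectin, the bound was 9.79-fold, and its interaction call (0.044 and 0.46) was lost without any of 11 single arrays.

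Gene lists chosen for liver and tumour biology were read by counts and medians. None of the 7 genes was on a list, and over replicates 1 to 3 no interaction of a list gene was called. The statements on lists therefore concern each genotype's own response. Interaction counts over all arrays are given beside a list or at the end of the lists. Of all genes tested over replicates 1 to 3, 6% rose and 7.25% fell in dKO livers, and 1.08% rose and 1.01% fell in WT livers; the lists' counts in each genotype are to be read against these shares. Counts of responses over all arrays stand against 16.3% of genes up and 21.5% down in dKO livers. In WT livers these shares were 8.49% and 8.7%. The interaction counts stand against 2.47% of genes called above 0 and 2.68% below 0. Within the slide that held all 4 female groups, which is 1 array a group with replicate 4 for treated dKO, each called interaction of a named gene kept its sign. These arrays are among those the genes were called on, so the kept sign is no sign of stability. In bulk tissue, fewer cells of a type and less RNA per cell cannot be told apart.

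Of 34 genes of CAR-responsive drug metabolism, 4 rose and 3 fell in dKO livers over replicates 1 to 3, and 7 rose and 0 fell in WT livers. Over all arrays 13 rose and 7 fell in dKO livers and 12 rose and 0 fell in WT livers. The median response was 0.18 in dKO and 0.63 in WT livers. Over all arrays 6 interactions were called below 0 and 0 above, and the list's median interaction was −0.57 (−0.68 over replicates 1 to 3). Cyp2b10, the classic TCPOBOP-induced cytochrome P450, was at 5.42, 1.88, 4.69 and 4.48 on treated dKO arrays, 3.62, 3.48, 3.88 and 3.77 on untreated dKO arrays, 6.05, 5.37, 5.24 and 5.77 on treated WT arrays, and 2.51, 2.62, 2.38 and 2.56 on untreated WT arrays. Untreated dKO livers were above untreated WT livers on every array, and the treated dKO arrays overlapped untreated dKO and treated WT ones. Cyp2b10 rose by 3.09 in WT livers (limma adjusted p = 0.000138, and 0.0222 over replicates 1 to 3). Its dKO response was 0.43 (0.478 and 0.739), and the interaction of −2.66 ± 0.63 had adjusted p = 0.0203 by limma over all arrays and 0.317 over replicates 1 to 3, ranging over single arrays left out from −3.10 to −1.92. Some CAR targets were called both ways in both genotypes: the transporter gene Abcc4 rose in both genotypes, by 3.07 in dKO and 2.34 in WT livers, and the glucuronosyltransferase gene Ugt2b35 by 0.66 and 0.62. Cyp2c55 and the aldo-keto reductase gene Akr1b7 rose in WT livers by 5.41 and 4.54 (limma adjusted p over replicates 1 to 3 0.00487 and 0.00861), with dKO responses of 2.75 and 2.51 and interactions that were not called over all arrays (0.0786 and 0.142). Nr1i3, the receptor itself, had an interaction of −1.04 (limma adjusted p = 0.449), which was −0.14 without treated dKO replicate 2.

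Genes of cell division rose in dKO livers. Of 36 mitosis genes, 22 rose in dKO livers and 0 in WT livers over replicates 1 to 3, the interaction was above 0 for 36 of 36 with a median of 1.89 (1.74 over replicates 1 to 3), and 9 were called above 0 over all arrays. The list's mean level was −1.73, −0.01, −2.68 and −0.83 on treated dKO arrays, −3.06, −3.90, −3.41 and −3.50 on untreated dKO arrays, −3.40, −3.33, −2.76 and −3.15 on treated WT arrays, and −3.90, −3.16, −3.41 and −3.41 on untreated WT arrays. The treated dKO arrays were the highest 4, with replicate 2 highest and replicate 3 just above the nearest treated WT array. Prc1, a spindle midzone protein, and the cyclin genes Ccnb2 and Ccna2 rose in dKO livers by 3.31, 2.35 and 2.59 (limma adjusted p over replicates 1 to 3 0.00973, 0.021 and 0.0201). Of 30 replication and S phase genes, 6 rose and 1 fell in dKO livers over replicates 1 to 3, and 9 interactions were called above 0 over all arrays; Lig1, the replicative DNA ligase gene, rose in dKO livers by 0.91 (0.0282 over replicates 1 to 3). Myc had an interaction of 1.06 that was not called (limma adjusted p = 0.0854).

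**Figure D4:**
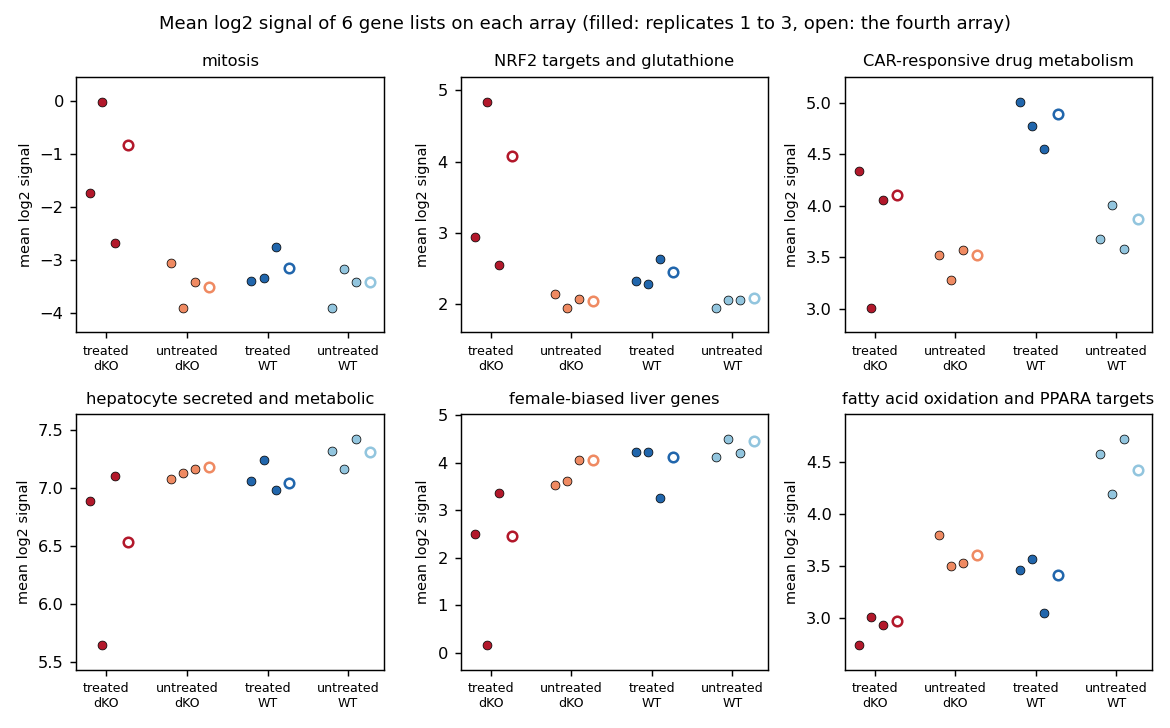
Mean level (log2 signal over the array's 75th percentile, y axis) of 6 gene lists on each array of treated dKO, untreated dKO, treated WT and untreated WT livers; filled points are replicates 1 to 3, open points the fourth array. Mitosis genes were highest on treated dKO arrays (−2.68 to −0.01), where replicate 2 also had the lowest hepatocyte mean (5.65).

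Of 20 NRF2 targets and glutathione genes, which answer to oxidative and electrophile stress, 3 rose in dKO and 0 in WT livers over replicates 1 to 3, with 2 called interactions over all arrays (Mgst2 and Slc7a11). Their mean level was 2.94, 4.84, 2.55 and 4.08 on treated dKO arrays, 2.14, 1.95, 2.07 and 2.05 on untreated dKO arrays, 2.33, 2.28, 2.63 and 2.45 on treated WT arrays, and 1.95, 2.06, 2.06 and 2.09 on untreated WT arrays, so that replicates 2 and 4 carried most of the dKO level and replicate 3 lay within the treated WT range. Of 22 p53 targets, 0 had a called interaction. Cdkn1a, the cell cycle inhibitor p21, had an interaction of 0.95 (limma adjusted p = 0.609), 0.20 without treated dKO replicate 2.

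Lists of hepatocyte genes differed in how many members fell in dKO livers, where 7.25% of all genes did. Of 23 genes with female-biased liver expression, 9 fell in dKO and 0 in WT livers over replicates 1 to 3, and the median interaction was −1.31, with 2 called below 0 over all arrays. Slc22a28, an organic anion transporter, and Hao2, a hydroxyacid oxidase, fell in dKO livers by 2.84 and 2.85 (limma adjusted p over replicates 1 to 3 0.00266 and 0.035), with interactions of −1.94 and −3.09 (0.0116 and 0.0439 over all arrays, 0.277 and 0.39 over replicates 1 to 3). Of 15 periportal genes 2 fell in dKO livers over replicates 1 to 3, and the interaction was below 0 for 15 of 15 (median −1.11). Of 18 pericentral Wnt-dependent genes 1 fell, with a median interaction of −1.22. Of 31 hepatocyte secreted and metabolic genes 4 fell in dKO livers. Over replicates 1 to 3 these are few genes of the periportal, pericentral and hepatocyte lists. Over all arrays 10 periportal, 15 pericentral and 17 hepatocyte genes fell in dKO livers, and 0, 2 and 1 in WT livers. Rises there were 1, 0 and 1 in dKO and 1, 1 and 0 in WT livers. In the female-biased list 18 fell in dKO and 2 in WT livers, and 0 rose in either. Of all genes 21.5% fell in dKO and 8.7% in WT livers over all arrays. The hepatocyte list had a mean level of 6.89, 5.65, 7.10 and 6.54 on treated dKO arrays, 7.08, 7.13, 7.16 and 7.18 on untreated dKO arrays, 7.06, 7.24, 6.98 and 7.04 on treated WT arrays, and 7.32, 7.16, 7.42 and 7.31 on untreated WT arrays. Replicate 3 of the treated dKO group kept the level of the other groups. The part of hepatocyte content in the female-biased and zonal results was not tested.

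Peroxisome proliferator target genes fell in both genotypes: of 29 genes of fatty acid oxidation and PPARA targets, 11 fell in dKO and 11 in WT livers over replicates 1 to 3, while 1 and 0 rose. Over all arrays 15 fell in dKO and 22 in WT livers, while 1 and 0 rose. The median response was −0.57 in dKO and −1.04 in WT livers. The hydroxylase genes Cyp4a10 and Cyp4a14 fell in dKO livers by 3.39 and 5.73 and in WT livers by 2.03 and 3.17. Acot1, an acyl-CoA thioesterase, fell in WT livers by 2.28 (limma adjusted p = 2.3e-05, and 0.00745 over replicates 1 to 3), had a dKO response of 0.35 (0.339 and 0.61) and an interaction of 2.64 ± 0.39 (0.00131 and 0.137). Ehhadh, of peroxisomal oxidation, fell in dKO livers by 1.80 (0.000931 over replicates 1 to 3 by limma), with an interaction of −0.95 (0.0185 and 0.328). Of 17 fatty acid synthesis genes 4 fell in dKO livers, among them the regulator Srebf1, by 1.56 (limma adjusted p = 7.78e-05, and 0.0131 over replicates 1 to 3), with an interaction of −1.68 (0.00759 and 0.245). Of 21 genes of bile acid synthesis and transport 5 fell in dKO and 1 in WT livers. Over all arrays 4 interactions of the fatty acid oxidation list were called above 0 and 2 below. The counts above and below 0 were 0 and 3 for fatty acid synthesis and 0 and 1 for the bile acid list.

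Genes of the fetal, ductal and matrix lists rose in dKO livers, and fetal and ductal genes also rose in WT livers over all arrays. Of 26 fetal liver and liver tumour genes 10 rose in dKO and 1 in WT livers over replicates 1 to 3. Over all arrays 17 rose in dKO and 9 in WT livers, with a median response of 2.01 and 1.27. There 3 interactions were called above 0 and 1 below. Igf2, the fetal growth factor, rose in dKO livers by 6.05 (limma adjusted p = 8.66e-06, and 0.0047 over replicates 1 to 3), with an interaction of 4.13 (0.0223 and 0.346). Alpha-fetoprotein (Afp) rose in dKO livers by 2.62 (0.0407 over replicates 1 to 3 by limma), with an interaction of 1.18 that was not called (0.377) and was 0.54 without treated dKO replicate 2. Of 23 bile duct markers 8 rose in dKO and 1 in WT livers, and Spp1, which encodes osteopontin, had dKO and WT responses of 3.82 and 0.68 (limma adjusted p over replicates 1 to 3 0.000931 and 0.446) and an interaction of 3.14 ± 0.47 (0.00131 and 0.156). The mean level of the bile duct list was 0.31 to 0.84 on treated dKO, −0.81 to −0.25 on untreated dKO, −1.60 to −0.90 on treated WT and −2.12 to −1.90 on untreated WT arrays, so that the dKO groups lay above both WT groups. The list's median interaction of 0.36 was 0.08 over replicates 1 to 3 and −0.02 with another background correction. Over all arrays 11 bile duct markers rose in dKO and 7 in WT livers, with a median response of 0.49 and 0.58. There 5 interactions were called above 0 and 2, with Tspan15 among them, below 0. Of 34 stellate, fibroblast and matrix genes 16 rose and 1 fell in dKO livers and 0 changed in WT livers over replicates 1 to 3, with Col1a1 (collagen) up by 2.98, Mmp2 (a gelatinase) by 2.03 and Lum (lumican) by 1.27 in dKO livers. Over all arrays 5 interactions of this list were called above 0 and 0 below. The mean level of the matrix list was 0.59 to 1.33 on treated dKO, −0.40 to 0.29 on untreated dKO, −0.78 to −0.24 on treated WT and −0.84 to −0.76 on untreated WT arrays; the part of cell content in these rises was not tested.

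Some markers of blood and vessel cells had called interactions over all arrays. Ighm, the IgM heavy chain, had a WT rise of 2.46 and a dKO response of 0.20 (interaction −2.25; limma adjusted p = 0.00759, and 0.24 over replicates 1 to 3), and the WT rise was called both ways (0.0106). The cytotoxic granule genes Gzmb and Gzma had interactions of −2.48 and −1.65 (limma adjusted p = 0.0131 and 0.035, with 0.301 and 0.383 over replicates 1 to 3). The 19 T and NK cell markers had a median response of 0.21 in dKO and 1.07 in WT livers, and the 10 B and plasma cell markers 0.25 and 1.05. Both lists had higher means in untreated dKO than in untreated WT livers, −2.55 to −2.36 against −3.43 to −2.98 for T and NK cells and −0.94 to −0.40 against −1.52 to −1.18 for B and plasma cells. Of 17 endothelial markers 4 fell in dKO and 0 in WT livers over replicates 1 to 3, among them Tek, the angiopoietin receptor, by 1.16 (limma adjusted p = 6.01e-05 and 0.00924), and Clec4g and Oit3, of sinusoidal cells, by 1.55 and 1.19. The list's median response was 0.15 in dKO and 0.27 in WT livers. Over all arrays 2 members rose and 6 fell in dKO livers, and 2 rose and 0 fell in WT livers. There 4 interactions were called below 0 and 0 above. The mean of the endothelial list was 0.13 to 0.98 on treated dKO, 0.47 to 0.88 on untreated dKO, 0.50 to 0.95 on treated WT and 0.20 to 0.62 on untreated WT arrays, and the part of cell content was not tested. Of 22 macrophage markers 4 rose in dKO livers (Gpnmb, Trem2, Ms4a7 and Cx3cr1), and 1, the scavenger receptor Cd163, fell (by 3.26; 0.0172 over replicates 1 to 3 by limma). In WT livers 0 were called over replicates 1 to 3, but over all arrays 12 rises were called in dKO and 13 in WT livers, with a median response of 1.01 in dKO and 1.30 in WT livers. Of 24 interferon response genes 8 rose in dKO and 3 in WT livers over replicates 1 to 3, with Oas1a, Irf7 and Oasl2 up in both, by 2.49, 1.70 and 2.28 in dKO and 2.06, 1.48 and 1.98 in WT livers. Over all arrays 14 rose in dKO and 20 in WT livers, with a median response of 1.34 and 1.61. There 1 interaction was called, below 0.

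**Figure D5:**
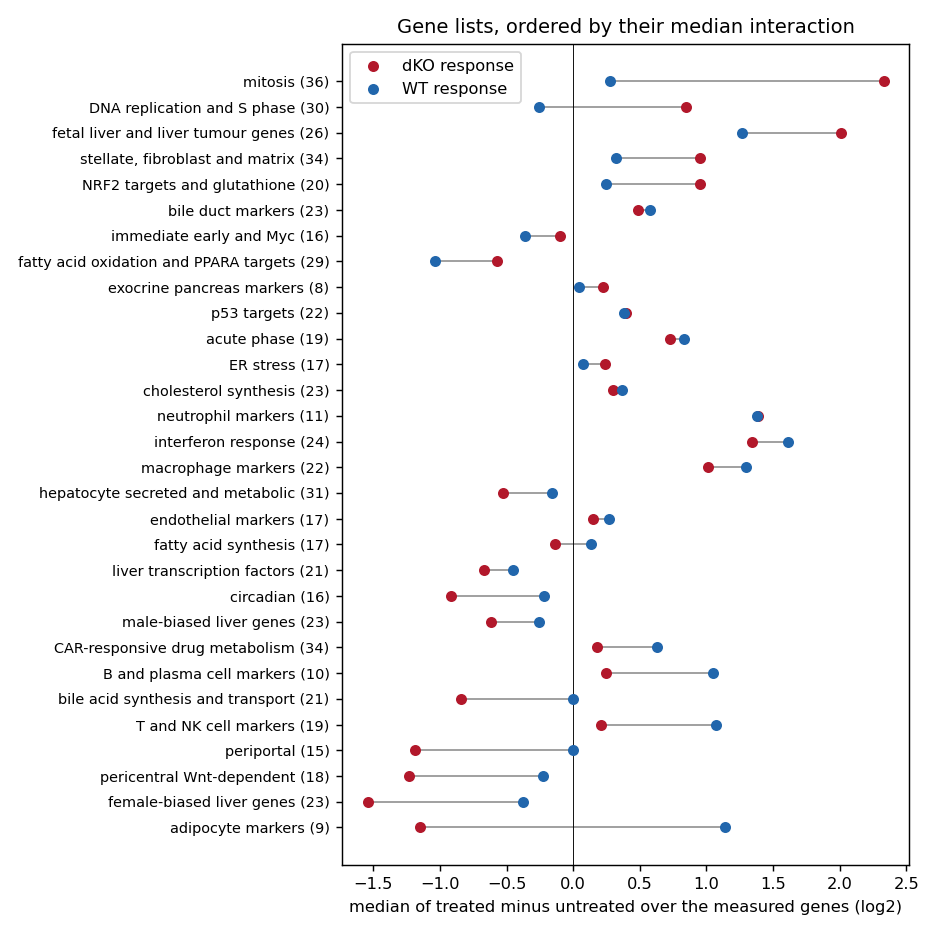
Median dKO response (red) and median WT response (blue), in log2, of the measured genes of 30 lists, with the number measured in brackets, ordered by the median interaction, which need not equal the gap between the medians. Mitosis genes lie at the top with the dKO median far above the WT median, and female-biased genes near the bottom with the dKO median the lower.

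The counts of the remaining lists are over replicates 1 to 3 unless all arrays are named. Of 16 circadian genes 5 fell in dKO and 1 in WT livers, where 7.25% and 1.01% of all genes did, and the interaction was below 0 for 15 of 16 (median −0.49). Of 21 liver transcription factors 4 fell in dKO and 3 in WT livers. Of 23 male-biased genes 2 fell in each genotype, and of 19 acute phase genes 4 rose in dKO livers. Over all arrays 11 acute phase genes rose in dKO and 10 in WT livers, with a median response of 0.73 and 0.83. Of 16 immediate early genes 2 rose and 2 fell in dKO livers and 1 fell in WT livers, of 17 ER stress genes 1 fell and of 23 cholesterol synthesis genes 1 fell in dKO livers. Over all arrays 7 cholesterol synthesis genes rose and 5 fell in dKO livers, and 3 rose and 0 fell in WT livers. The 9 adipocyte markers had a median interaction of −1.34 that turned to 1.76 within the slide of all 4 groups, so no direction is given for them. Called interactions over all arrays, above and below 0, were 2 and 2 for male-biased genes and 1 and 3 for adipocyte markers. They were 2 and 1 for ER stress genes and 1 and 1 for liver transcription factors. The periportal, T and NK, and B and plasma cell lists had 0 and 2. The pericentral, macrophage and cholesterol lists had 0 and 1. The hepatocyte and exocrine pancreas lists had 1 and 0. The neutrophil, acute phase, immediate early and circadian lists had 0 and 0.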

How the data were processed

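Per the labels' protocols, RNA was amplified with a WT-Ovation Pico kit, labelled with Cy3 and hybridised to Agilent 4x44K mouse arrays. Per the file headers, the authors' scanner files hold spot intensities (background-subtracted, spatially detrended processed signal) from Feature Extraction 10.5.1.1; the submitters' processing notes name 9.53. Array number and signal over background limit the precision. From the deposited intensities, log2 processed signal minus each array's 75th percentile was taken, control and outlier spots were dropped and spots of a probe averaged. Of 41174 probes, 28048 that were clearly brighter than background on 4 or more arrays of the whole series entered the fit, and the brightest probe stood for a gene. Of 19037 genes, 15423 were named through RefSeq accessions or symbols and 3614 kept the array's name; 61 had an array missing. limma 3.58.1 (R 4.3.3) fitted 6 group means over all 24 arrays, with the interaction as a contrast and Benjamini-Hochberg adjustment, in the main analysis. Each gene had a single spread, shared by all groups. The authors' deposited table of signed fold changes, entered as a score and made in a way not given in the sources used here, was used for a check of signs. The same fit over replicates 1 to 3 was added after the data were seen. The pipeline was tested on simulated data. Figures were drawn with matplotlib 3.10.9.

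A group not above background on any array gives only a bound ("at least N-fold"), taken from the lowest signal among probes well above background, and such genes get no interaction size. A class needs a called interaction and a called response: WT for lost or weakened, dKO for gained or strengthened. Named are, per class, the 6 genes of largest interaction above background on at least 2 arrays of each female group and on all arrays of the highest one, 3 genes with a bound, up to 4 called members of a list (2 where none was called), and Foxa1, Foxa2, Foxa3, Cyp2b10, Nr1i3, Afp, Myc and Glul. Not every gene that the rule selects is reported here, and those left out are mostly list members. Ddit4l, S100a8, Il1b, Lcn2 and Orm2 are among those without a called interaction. Cfd, Plin4, Cela1, Hsd3b5, Cbr3, Gstt3, Ccnb1, Mcm6 and Bicc1 are among those with an interaction called over all arrays. Pnliprp1, AK168746 and Prtn3, and list members named for being called over replicates 1 to 3 or for their responses (Abcc4, Ugt2b35, Cyp2c55, Akr1b7, Cyp4a10, Cyp4a14, Oas1a, Irf7, Oasl2 and the 4 macrophage genes), were chosen after their values were seen. The members and the 30 lists were chosen with earlier results of these data known. Same-numbered samples of different groups showed no clear shared deviation (24 pairs, median correlation −0.04, range −0.25 to 0.34, 4 over 0.1). For different numbers the median was −0.01 and the range −0.20 to 0.24 (72 pairs). Replicate numbers were therefore not taken to pair the samples, though a weak or partial pairing could escape this check. Glul had an interaction of −0.72 (limma adjusted p = 0.176), with another probe of opposite sign.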

Additional observations from a re-analysis of the deposited data

Results flagged for a closer look

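In 4 list means the outermost array lay farther from its group than Dixon's limit for 4 samples allows, a limit that chance passes in about 1 in 20 groups; 120 group means were looked at, and the fourth array was counted as a sample. Treated dKO replicate 3 had a mean level of 0.94 for macrophage markers, the lowest of its group. Treated WT replicate 3 had a mean level of 0.36 for p53 targets and of 3.25 for female-biased liver genes. Untreated WT replicate 3 had a mean level of −0.84 for stellate, fibroblast and matrix genes, the lowest of its group.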

How the results depend on the processing

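The count of called interactions (982) and the counts of lost or weakened inductions and repressions (181, 111) and of gained or strengthened inductions and repressions (349, 319) depended on several choices. Over replicates 1 to 3 they were 7, 4, 0, 2 and 1, with 2523 dKO and 397 WT responses; an unadjusted p under 0.05 was reached by 1990 genes. With array position as a covariate they were 4, 2, 0, 1 and 1, with 2364 dKO responses. With the 16 female arrays alone they were 475, 104, 65, 169 and 137. With normexp background correction they were 415, 77, 41, 143 and 148, with 1875 WT responses, and the median of all genes moved to −0.15. With no filter on dim probes 560 were called, with 110 lost inductions, 198 gained inductions and 174 gained repressions. With slide as a fixed block 1481 were called, with 533 gained inductions and 568 gained repressions. Without treated dKO replicates 2 and 3, chosen after seeing the data, 533 repressions were gained. Leaving out single arrays gave 467 (without treated dKO replicate 4) to 2403 (without treated dKO replicate 3) interactions, 5556 to 8347 dKO and 1931 (without treated WT replicate 3) to 4044 WT responses, 100 to 251 lost inductions, 73 to 185 lost repressions, 151 to 859 gained inductions and 141 to 1066 gained repressions. Counts also fell by over 1.5 times without treated WT replicate 1 (571) or 4 (605), untreated WT replicate 1 (628) or 4 (573), or untreated dKO replicate 4 (552). Median centring (732), quantile normalization (1116), the mean of a gene's probes (922), trended robust moderation (1049) and slide as a random block (1341) kept the interaction count within 1.5 times. The replicate number as a block gave 745 calls.

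The interaction of Ccne2 turned to −0.10 with normexp, and that of Foxa1, below background in dKO, to 0.82 with quantile normalization. The median interaction of bile duct markers turned to −0.02 with normexp and −0.13 with array position, that of male-biased genes to 0.09 within the slide of all groups, and that of adipocyte markers to 2.25 among genes above background on all 16 arrays and 1.76 within the slide. Medians of other lists also changed sign under at least 1 alternative, reaching 0.78 for neutrophil markers, 0.72 for interferon response, 0.69 for cholesterol synthesis, 0.06 for macrophage markers, −0.93 for exocrine pancreas markers, −0.12 for acute phase, −0.16 for immediate early genes and −0.04 for p53 targets. The causes were not tested. Of 93 called named genes, the call of 60 held without any single array and that of 33 was lost without at least 1; 86 were lost over replicates 1 to 3, 89 with array position and 40 with normexp. The authors' deposited table of fold changes, matched for 19016 genes, gave the same sign for 982 of the 982 called. That table compares the same groups of this study, on which the genes were called, so the shared sign is no independent support.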
